A study of Mus musculus with 15 samples.

Results

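Toll-like receptors (TLRs) are the pattern recognition receptors by which macrophages, dendritic cells and B cells sense microbes, and Cd14 is the co-receptor that hands lipopolysaccharide to the Tlr4 complex. Receptors at the cell surface recognise bacterial lipids, lipopeptides and flagellin, whereas the receptors of the endosome recognise nucleic acids. Most of them signal through the adaptor Myd88, which recruits kinases of the Irak family and leads to NF-kB activity and cytokine production. Here the histone marks at 10 listed genes, Tlr1 to Tlr9 and Cd14, are described out of 22350 protein-coding genes on chromosomes 1 to 19 and X of the mm9 mouse genome. The genes were taken by name.

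The data are chromatin immunoprecipitation followed by sequencing (ChIP-seq) from C10 cells, a derivative of mouse HAFTL pre-B cells, which express C/EBPα fused to the estrogen receptor hormone-binding domain (C/EBPαER) together with GFP. All 15 libraries came from cells carrying this transgene, so there was no line without it. The study detected weak C/EBPα binding in uninduced pre-B cells and proposes that the transgene is somewhat leaky. Cells taken before induction may thus not be free of transgene activity. Cells were induced with β-estradiol in medium with IL-3 and CSF-1, upon which they become macrophage-like, and were taken at 0, 3, 12, 24 and 48 h post-induction (hpi), 0 hpi being the pre-B cells before induction; the labels name the ethanol solvent as the control treatment. H3K4Me1 marks poised and active enhancers, H3K27Ac marks active enhancers and promoters, and H3K27Me3 is the repressive mark laid down by Polycomb complexes. There was 1 library for each mark and time, so the spread between replicates is unknown, no test was run, and the intervals below cover counting error only.

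The deposited H3K4Me1 libraries held 11.04 to 17.85 M tags, those of H3K27Ac 15.93 to 18.56 M and those of H3K27Me3 15.36 to 31.56 M, and each was thinned to equal depth within its mark (to 10.91, 15.22 and 15.34 M tags in the same order). H3K27Ac at the starts of 4 pre-B markers (Cd79a, Pax5, Vpreb1 and Igll1) was at least 2-fold lower at 48 than at 0 hpi at 4 of 4, with a summed level of 4837 tags at 0 hpi and 1541 at 48 hpi. The smallest of these decreases lay just past 2-fold (log2 change -1.01), and scaling over constantly enriched bins, described below, takes it under. At 5 macrophage markers (Csf1r, Itgam, Lyz2, Cybb and Cd68) H3K27Ac was at least 2-fold higher at 5 of 5, with 341 and 1554 tags, although Cybb held only 1 and 10. Starts of 3 T cell, 3 erythroid and 3 fibroblast markers summed to 22, 137 and 36 tags at 0 hpi and to 22, 108 and 74 tags at 48 hpi, and 1 of these 9, Pdgfrb, was at least 2-fold higher. Differences in the fraction of cells that carry a mark and in the level per cell cannot be told apart in these bulk samples.

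To see how the receptor genes differ at their promoters, tags were counted in the 3 kb centred on the annotated start of each gene. Mappable windows of this length held on average 13.1 H3K4Me1, 18.3 H3K27Ac and 18.4 H3K27Me3 tags, and a window was called enriched from 27, 34 and 34 tags (Poisson upper tail under 0.001). Log2 changes were computed with 5 tags added to both counts. From 0 to 48 hpi, H3K27Ac was at least 2-fold higher at 4 of the 10 starts (Cd14, Tlr7, Tlr8 and Tlr2) and at least 2-fold lower at 1 (Tlr9), while 5 starts (Tlr1, Tlr3, Tlr4, Tlr5 and Tlr6) lay between. Over all 22350 protein-coding starts, 5.37% were at least 2-fold higher and 9.4% at least 2-fold lower. The median log2 change was 0.38 over the 10 genes and -0.14 over all starts. At 3 hpi, 1 gene was already at least 2-fold higher, Cd14, against 4.24% of all starts, and 1 was at least 2-fold lower, Tlr9, against 1.96%. At 12 hpi 4 were higher and 0 lower (4.38% and 3.15% of all starts), and at 24 hpi again 4 and 0 (4.69% and 8.71%). Equalising the libraries over bins that stayed enriched throughout, here called constant-bin scaling, moved the H3K27Ac log2 changes of the 10 starts at 48 hpi by 0.32 to 0.42. Equalising them over background bins moved those at 24 hpi by 0.41 to 0.54 and put 7 starts at least 2-fold higher at that time, Tlr1, Tlr4 and Tlr6 being added. At 12 hpi it put 1 start at least 2-fold lower, Tlr9 (-1.07).

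**Figure D1:**
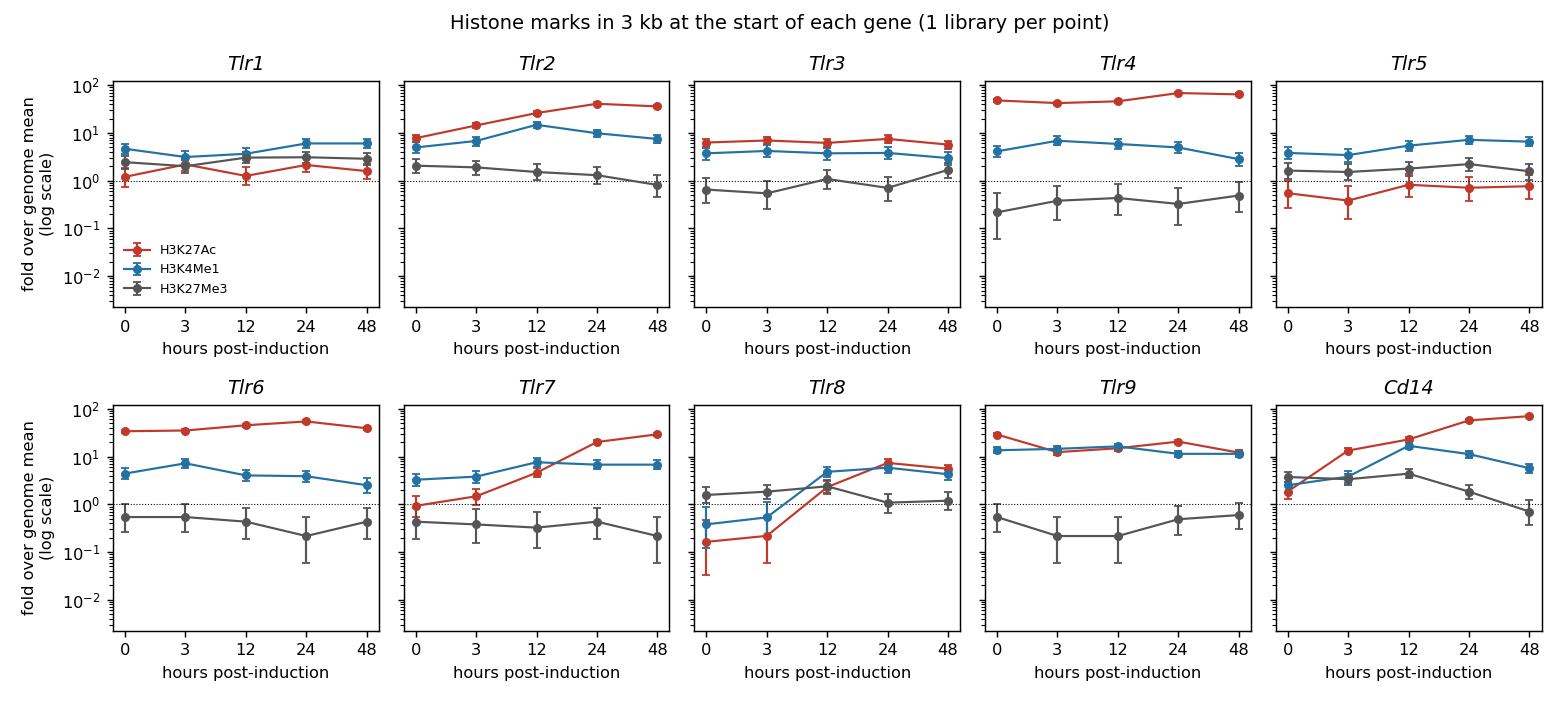
Tags in the 3 kb at each gene start divided by the genome mean of the mark (log axis) against hours post-induction, for H3K27Ac (red), H3K4Me1 (blue) and H3K27Me3 (grey); each point is 1 library, bars are exact 95% Poisson intervals and the dotted line is the genome mean. H3K27Ac at Cd14 goes from 1.86-fold to 70.4-fold over the mean, at Tlr4 and Tlr6 it stands above 30-fold at every time, and at Tlr5 it stays below the mean.

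Cd14, the glycosylphosphatidylinositol-anchored co-receptor for lipopolysaccharide, was the start with the largest difference among the 10. Its H3K27Ac tags were 34, 245, 419, 1048 and 1288 at 0, 3, 12, 24 and 48 hpi, a log2 change of 5.05 at 48 hpi (ratio 37.9, counting interval 27 to 54.9). At 0 hpi the count lay exactly at the enrichment limit and ranked 10337 of the 22350 starts, whereas at 48 hpi it ranked 6. H3K4Me1 followed another course, with 33, 50, 221, 148 and 75 tags, highest at 12 hpi and lower again at 48 hpi (log2 change from 12 hpi -1.5). H3K27Me3 tags were 69, 62, 81, 34 and 13, so the repressive mark was enriched up to 24 hpi and below the genome mean at 48 hpi (log2 change -2.04, interval of the log2 ratio -3.39 to -1.54). H3K27Ac was thus enriched at 3, 12 and 24 hpi while H3K27Me3 was still enriched in the same 3 kb. At 24 hpi, however, H3K27Me3 lay exactly at the limit (log2 change from 0 hpi -0.92, or -1.02 under constant-bin scaling). Whether both marks sat on the same chromosomes was not measured.

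The change at Cd14 was not limited to its promoter. Of the 21 windows of 3 kb over the gene body and 30 kb on each side (chr18, gene at 36884728 to 36886390, minus strand), the number enriched in H3K27Ac was 7, 17, 18, 19 and 21 over the 5 times. For windows, called higher means enriched at 48 hpi and at least 2-fold above 0 hpi, and called lower means enriched at 0 hpi and at least 2-fold below it at 48 hpi. In H3K27Ac, 20 of 21 windows were called higher, and 18 of these 20 held no start of another protein-coding gene. The exception, 18 kb upstream, held the starts of Ik and Ndufa2 and went from 421 to 547 tags. For comparison, 4.04% of 831416 windows of the genome were called higher. The Cd14 locus as a whole stood at 3.03-fold over the genome mean of H3K27Ac at 0 hpi and at 33.2-fold at 48 hpi.

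The 3 windows of the Cd14 locus with the largest changes lay downstream of the gene, between genes. The window 12 kb downstream (chr18:36872890-36875889) had 3, 122, 454, 697 and 852 tags, a ratio of 284 with a counting interval of 96.9 to 1380. The window 9 kb downstream had 3, 173, 475, 681 and 687 tags (ratio 229, 78.0 to 1113), and the window 3 kb downstream had 6, 71, 203, 602 and 1173 tags (log2 change 6.74). These neighbours differed in timing. At 9 kb, 24.9% of the distance between 0 and 48 hpi had been covered at 3 hpi and 69.0% at 12 hpi, whereas at 3 kb the shares were 5.57% and 16.9%.

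H3K27Me3 was enriched in 10 windows of the Cd14 locus at 0 hpi, from 3 kb upstream to 30 kb downstream. Over the 5 times the number was 10, 5, 10, 5 and 0. Some windows lay close to the enrichment limit, so these numbers depend on it. The window 9 kb downstream had 39, 21, 37, 22 and 24 tags, and that at 12 kb had 35, 27, 27, 14 and 14. The window 3 kb downstream stood further above the limit at first, with 64, 55, 77, 45 and 25 tags. H3K27Me3 was called lower in 5 of the 10 windows enriched at 0 hpi, against 0.125% of windows of the genome. Taken over gene and flanks, H3K27Me3 stood at 1.56-fold of its genome mean before induction and at 0.75-fold by 48 hpi. Of the 20 windows that were higher in H3K27Ac, 12 carried neither H3K4Me1 nor H3K27Ac at 0 hpi, and 9 of these 12 carried H3K27Me3 instead. The share of genome windows enriched in H3K27Me3 was not computed, so the 10 windows and the 9 of 12 have no comparison.

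**Figure D2:**
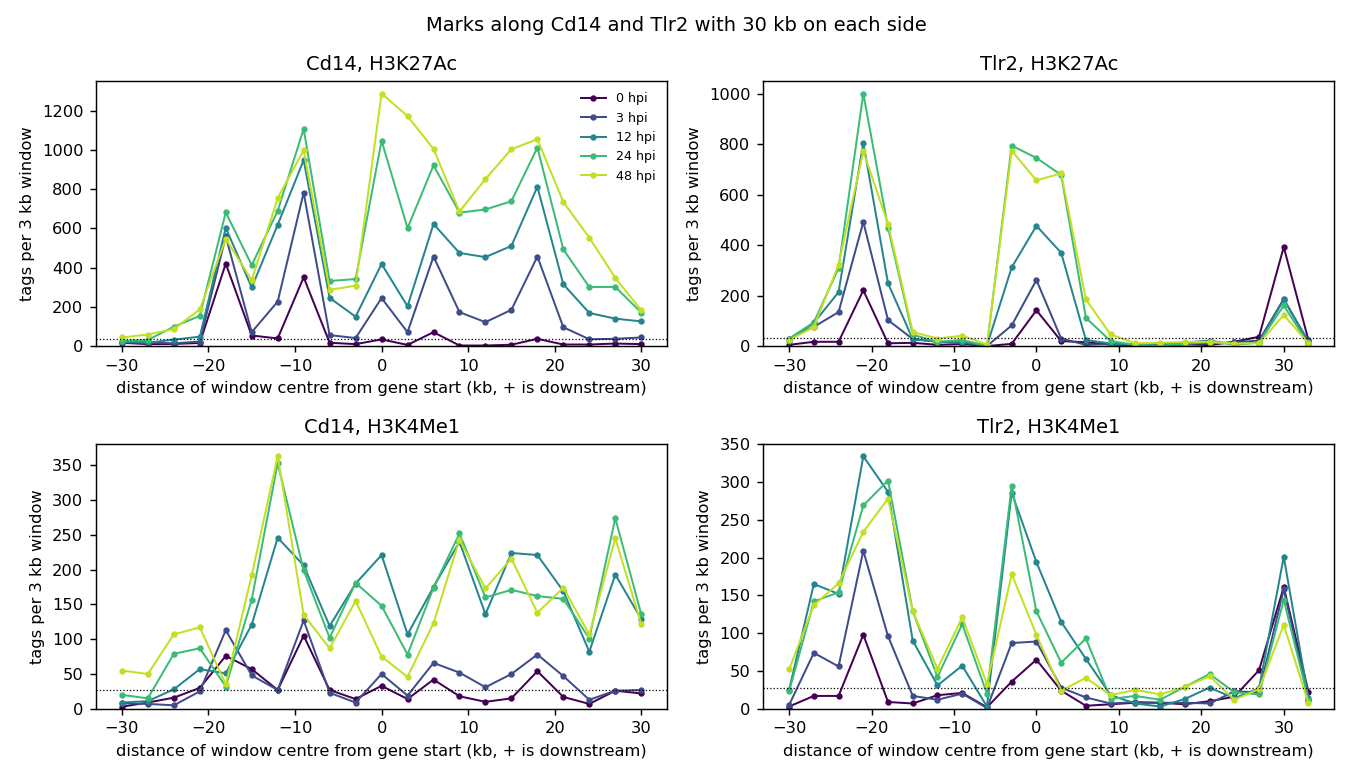
Tags per 3 kb window against the distance of the window centre from the gene start for Cd14 (left) and Tlr2 (right), H3K27Ac above and H3K4Me1 below, with 1 line per time from 0 hpi (dark) to 48 hpi (yellow) and the enrichment limit dotted. Around Cd14 the 48 hpi H3K27Ac line lies above the 0 hpi line in every window, whereas at Tlr2 the change sits in 2 blocks, near the start and about 21 kb upstream, and the window 30 kb downstream is lower, at 393 and 123 tags.

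Tlr4 is the lipopolysaccharide receptor that works with Cd14 and with the accessory protein Ly96 (MD-2). In contrast to Cd14, its start was strongly acetylated before induction. H3K27Ac tags were 876, 771, 840, 1251 and 1173, a log2 change of 0.42 (ratio 1.34, 1.23 to 1.46), and it ranked 323 of all starts at 0 hpi and 16 at 48 hpi. Against 0 hpi the log2 change was -0.18 at 3 hpi and -0.06 at 12 hpi, the latter with an interval of the log2 ratio of -0.20 to 0.08 and turning to 0.10 under constant-bin scaling. H3K4Me1 at the start was 54, 90, 77, 65 and 37 tags, and H3K27Me3 was low at every time, with 4 to 9 tags.

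The largest changes at Tlr4 lay instead in distal windows. Windows beside its start were higher as well, from 225 to 884 H3K27Ac tags 3 kb downstream and from 18 to 247 tags 6 kb downstream. The gene has a main transcript of 3 exons that ends 15.2 kb from the start and a longer annotated transcript of 4 exons that reaches 103 kb. The windows 21, 24 and 30 kb downstream therefore lie beyond the main transcript, in an intron of the longer one. In the window 24 kb downstream (chr4:66511118-66514117) H3K27Ac tags were 6, 130, 317, 733 and 792 (log2 change 6.18), and 15.8% of the distance had been covered at 3 hpi. The window 30 kb downstream had 35, 45, 182, 583 and 967 tags (4.60) and had covered 1.07% at 3 hpi. Between them and the main transcript, the window 21 kb downstream had 12, 23, 39, 123 and 234 tags (3.81). H3K4Me1 in these 3 windows was higher as well, with log2 changes of 3.06, 1.92 and 2.26. At 0 hpi, H3K4Me1 and H3K27Ac were both under the limit 24 kb downstream (14 and 6 tags), whereas 30 kb downstream both were enriched (51 and 35 tags).

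The primer pair that the study used for ChIP at Tlr4 was placed on the genome, because it lies in the window with the largest change of this locus. One primer matched the plus strand and the other the minus strand, and they delimit the stretch chr4:66513098-66513218 (mm9), 24480 to 24600 bases from the start. The stretch of 121 bases is shown 5′ to 3′ on the plus strand, with the single match to GAGGAAG in capitals.

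Tlr4 distal site: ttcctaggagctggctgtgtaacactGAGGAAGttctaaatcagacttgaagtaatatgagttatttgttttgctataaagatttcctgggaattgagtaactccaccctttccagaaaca

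Motifs searched on both strands were TTGCNNAA (C/EBP), GAGGAAG (a PU.1 core) and TGANTCA (AP-1), none of which overlapped another in the sequences shown. Of 1344 stretches of 121 bases over the Tlr4 gene and its flanks, 3.87% held GAGGAAG, 7.37% held TTGCNNAA and 4.61% held TGANTCA. A match describes the letters and not a bound site.

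The windows of the Tlr4 locus differed in direction. Of 55 windows, 22 were called higher in H3K27Ac and 3 lower. The window 45 kb downstream, in the same long intron, had 378, 113, 72, 62 and 49 tags (log2 change -2.83), and its neighbour at 48 kb had 176, 49, 55, 52 and 83 (-1.04; -0.64 under constant-bin scaling). Both were already at 29.9% and 27.8% of their 0 hpi level at 3 hpi, and both kept H3K4Me1, with 146 and 110 tags at 0 and 48 hpi at 45 kb. In the window 3 kb downstream of the start, H3K27Ac went from 225 to 884 tags while H3K4Me1 went from 81 to 2 tags (log2 change -3.62). Further along, the window 63 kb from the start had 8, 37, 25, 76 and 153 H3K27Ac tags.

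**Figure D3:**
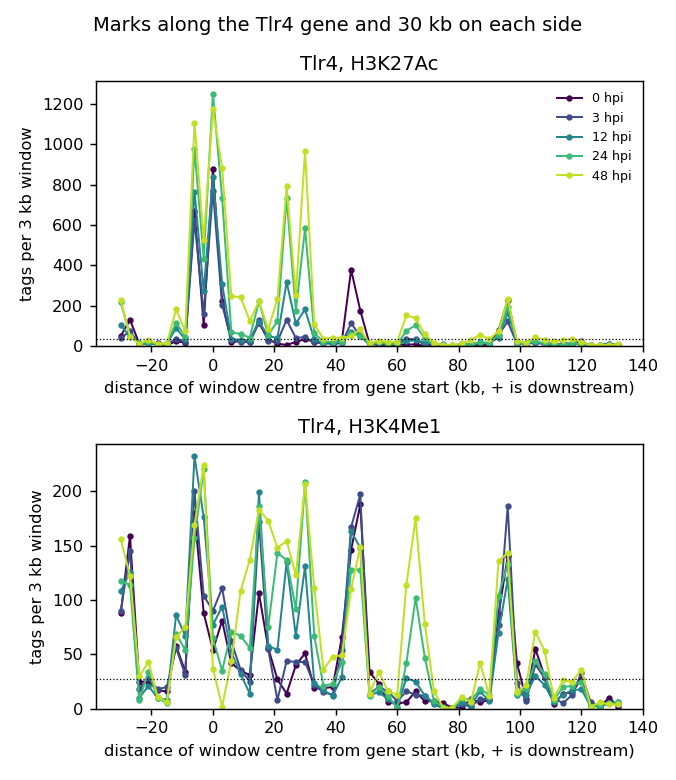
Tags per 3 kb window against the distance of the window centre from the Tlr4 start, H3K27Ac above and H3K4Me1 below, with 1 line per time from 0 hpi (dark) to 48 hpi (yellow) and the enrichment limit dotted. The peak at the start is tall at every time, the peaks 24 and 30 kb downstream are tall only at the later times, and the peak at 45 kb is tall only at 0 hpi (378 tags).

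Tlr2 recognises bacterial lipoproteins as a heterodimer with Tlr1 or Tlr6. Its start (chr3, gene at 83640195 to 83645689, minus strand) was enriched in H3K27Ac before induction and had 142, 262, 477, 746 and 657 tags, a log2 change of 2.17 (ratio 4.63, 3.85 to 5.59). H3K4Me1 was highest at 12 hpi, with 65, 89, 194, 129 and 98 tags, and in the central 1 kb it was lower at 48 than at 0 hpi (log2 change -1.30). H3K27Me3 tags were 38, 35, 28, 24 and 15 (log2 change -1.10; -0.99 under background-bin scaling).

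In the Tlr2 locus, 11 of 22 windows were called higher in H3K27Ac. The largest change was 3 kb upstream, where tags were 9, 82, 312, 795 and 775 (5.80) and where H3K27Me3 went from 50 to 9 tags. Next came the windows 18 kb upstream (11, 103, 249, 469 and 484 tags, 4.93) and 3 kb downstream, over an exon (20, 30, 370, 679 and 685 tags, 4.79). Beside the first of these lay a window that was acetylated before induction, 21 kb upstream, with 221, 492, 806, 1001 and 772 tags. H3K27Me3 stayed in the stretch between the upstream block and the gene: 12 kb upstream it had 65, 79, 148, 123 and 93 tags.

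Tlr6 and Tlr1, the partners of Tlr2, are neighbours on chr5 and their starts lie 27.3 kb apart, so that 1 locus serves both genes and their windows overlap. They also share sequence: 558 of the 7916 stretches of 36 bases in Tlr1 occur in Tlr6, which is 7.05%, and the study removed tags that did not align uniquely. The neighbours had opposite states at 0 hpi. The Tlr6 start had 622, 644, 829, 998 and 717 H3K27Ac tags (log2 change 0.20), while the Tlr1 start had 22, 40, 23, 39 and 29 (0.33, interval of the log2 ratio -0.45 to 1.27). The Tlr1 start carried H3K27Me3 instead, with 45, 37, 56, 57 and 53 tags, above the limit at all 5 times, against 4 to 10 tags at Tlr6. H3K4Me1 was enriched at both at all 5 times, with 41 to 79 tags at Tlr1 and 33 to 95 at Tlr6.

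Although both starts changed little, the window 3 kb upstream of Tlr6 (nearly the window 30 kb upstream of Tlr1) differed strongly. Its H3K27Ac tags were 36, 44, 234, 580 and 486 (log2 change 3.58). The next window, 6 kb upstream, had 4, 15, 33, 92 and 129 tags (3.90), and its H3K27Me3 went from 66 to 36 tags, with 97 at 12 hpi. Within the Tlr6 intron, 3 kb downstream of the start, H3K27Ac was lower, with 143, 92, 88, 58 and 39 tags (-1.75). Downstream of Tlr1, the windows at 15 and 33 kb had 7 and 8 tags at 0 hpi and 52 and 33 at 48 hpi (2.25 and 1.55), the latter just under the limit.

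Tlr5, the flagellin receptor, had little H3K27Ac. Its start had 10, 7, 15, 13 and 14 tags, below the genome mean of the mark at every time, and 0 of the 28 windows of its locus were enriched in H3K27Ac at any time. Of the 28, 5 held no tag in any library. H3K4Me1 at the start was nevertheless enriched throughout, with 50, 45, 71, 94 and 86 tags (log2 change 0.73, interval of the log2 ratio 0.26 to 1.32). H3K27Me3 had 28 to 41 tags and passed the limit only at 24 hpi.

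Among the endosomal receptors, Tlr7 and Tlr8, which recognise single-stranded RNA, lie beside each other on chrX with starts 66.2 kb apart, and share no stretch of 36 bases. The Tlr7 start had 17, 27, 84, 370 and 536 H3K27Ac tags, a log2 change of 4.62 (ratio 31.5, 19.5 to 54.5), and passed the limit at 12 hpi. H3K4Me1 was enriched there from 0 hpi on, with 43, 50, 100, 89 and 89 tags, and H3K27Me3 was at 4 to 8 tags. The Tlr8 start had neither activating mark at 0 hpi. Its H3K27Ac tags were 3, 4, 42, 135 and 102 (ratio 34, 11.3 to 168) and its H3K4Me1 tags 5, 7, 63, 77 and 56 (log2 change 2.61), so both passed their limits at 12 hpi. H3K27Me3 there had 29, 34, 44, 20 and 22 tags and was enriched at 3 and 12 hpi.

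The loci of the pair differed further away. In the Tlr7 locus 9 of 29 windows were called higher in H3K27Ac, the largest after the start being 3 kb downstream in an intron (34, 62, 100, 354 and 406 tags, 3.40). The windows 24 and 15 kb upstream, the former in an intron of Prps2, went from 26 to 118 and from 9 to 45 tags (1.99 and 1.84). A pair of windows in the Tlr7 intron, 12 and 15 kb downstream, was already acetylated at 0 hpi with 186 and 302 tags and stood at 226 and 385 at 48 hpi. In an intron of Prps2, 30 kb upstream of Tlr7, H3K27Ac went from 145 to 29 tags (-2.14). In the Tlr8 locus the start and the window 12 kb upstream (32, 49, 76, 95 and 80 tags, 1.2) were the 2 windows of 28 called higher.

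As examples of a start with a large and of one with a small H3K27Ac change at 48 hpi, the 250 bases before the starts of Tlr8 and Tlr3 are given (mm9, minus strand, 5′ to 3′). Capitals mark the match to TTGCNNAA in Tlr8 and the matches to GAGGAAG in Tlr3, on either strand. They lie at chrX:163702262-163702511 and chr8:46495963-46496212.

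Tlr8: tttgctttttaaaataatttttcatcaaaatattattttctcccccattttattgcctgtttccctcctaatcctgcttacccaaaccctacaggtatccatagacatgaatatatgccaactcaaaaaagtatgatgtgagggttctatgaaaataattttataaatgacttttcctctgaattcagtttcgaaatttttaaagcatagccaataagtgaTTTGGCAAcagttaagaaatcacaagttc

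Tlr3: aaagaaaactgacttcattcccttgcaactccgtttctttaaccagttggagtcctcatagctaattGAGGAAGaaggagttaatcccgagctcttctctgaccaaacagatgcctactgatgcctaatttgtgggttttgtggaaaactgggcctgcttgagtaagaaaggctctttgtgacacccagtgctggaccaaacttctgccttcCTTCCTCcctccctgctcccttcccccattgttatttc

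Of the 9 genes other than Tlr7, TTGCNNAA was present in these 250 bases at Tlr8, against 9.16% of all 22350 protein-coding promoters of this length. GAGGAAG was present at Tlr3, Tlr4 and Tlr9 (10.6% of all) and TGANTCA at Tlr9 and Cd14 (6% of all).

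Tlr3, the receptor for double-stranded RNA, which signals through the adaptor Ticam1 rather than Myd88, had little change. H3K27Ac tags at its start were 115, 127, 113, 137 and 104, a log2 change of -0.14 (ratio 0.90, 0.69 to 1.19), which turned to 0.26 under constant-bin scaling. H3K4Me1 had 49, 55, 49, 50 and 39 tags. H3K27Me3 tags were 12, 10, 20, 13 and 31, a log2 change of 1.08 with all counts under the enrichment limit, and the change was under 2-fold with constant-bin scaling (0.94), with all distinct positions (0.84), with tags as deposited (0.84), in 6 kb (0.62) and in 1 kb (0.15). Of the 25 windows of its locus, 0 were called higher or lower in H3K27Ac, and only 1 window other than the start, 6 kb upstream, was enriched at any time (35, 38, 34, 80 and 28 tags).

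Tlr9, the endosomal receptor for unmethylated CpG DNA, was the member whose start was lower in H3K27Ac. Tags were 530, 227, 274, 377 and 222, a log2 change of -1.24 (ratio 0.42, 0.36 to 0.49), and most of the difference was present at 3 hpi (log2 change -1.21). The size depended on the scaling, being -0.83 under constant-bin scaling, and at 24 hpi the sign turned from -0.49 to 0.05 under background-bin scaling. H3K4Me1 at the same start stayed at 178, 191, 215, 150 and 150 tags, and ranked 127 of all starts at 0 hpi. H3K27Me3 was at 4 to 11 tags. Elsewhere in this gene-dense locus H3K27Ac was called higher in 3 of 22 windows: 21 kb downstream, at the start of Alas1 (16, 9, 37, 134 and 135 tags, 2.74), and 15 and 12 kb upstream in an intron of Twf2 (1.47 and 1.15).

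**Figure D4:**
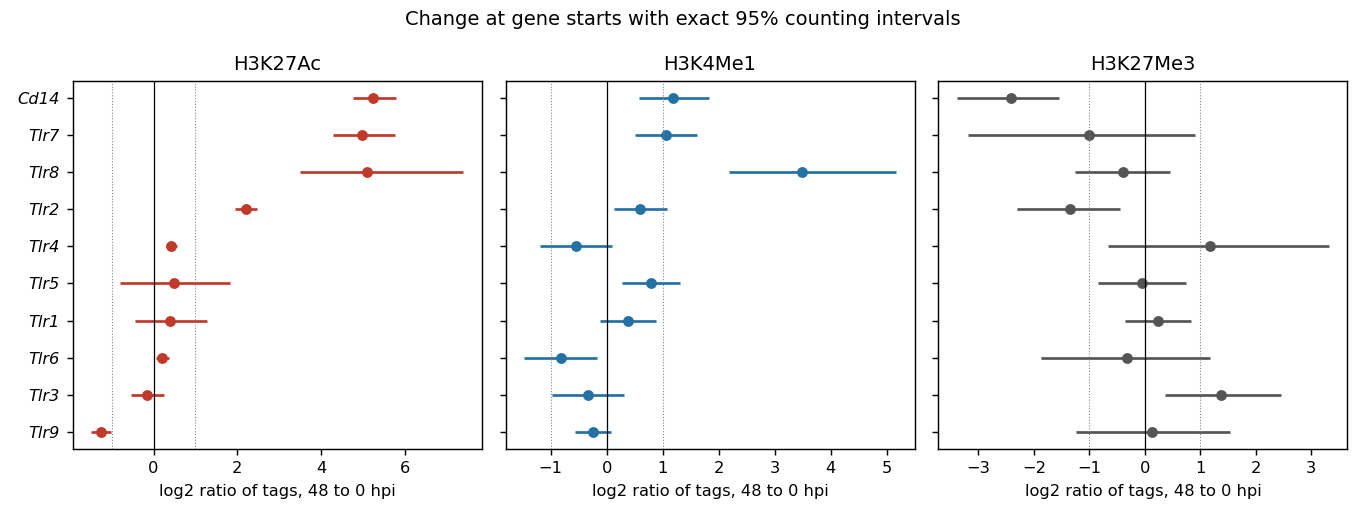
Log2 ratio of tags at 48 hpi to tags at 0 hpi in the 3 kb at each start, without added tags, for the 3 marks; points are the ratio of 1 library to 1 library, lines are exact 95% counting intervals and dotted lines mark 2-fold. H3K27Ac intervals at Cd14, Tlr7, Tlr8 and Tlr2 lie above 2-fold, the Tlr9 interval (-1.49 to -1.03) lies below, and the H3K27Me3 interval at Cd14 (-3.39 to -1.54) lies below.

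The 3 marks did not move together at the 10 starts. With 5 tags added, H3K4Me1 was at least 2-fold higher at 2 starts (Tlr8 and Cd14) at 48 than at 0 hpi and at least 2-fold lower at 0, against 3.38% and 9.65% of all starts. Tlr7 lay just under (43 and 89 tags, ratio 2.07, log2 change 0.97) and passed 2-fold under constant-bin scaling, which put 3 starts higher. At 12 hpi H3K4Me1 was at least 2-fold higher at 4 starts, Cd14, Tlr2, Tlr7 and Tlr8, and lower at 0, against 3.18% and 4.01% of all starts. The number higher at 12 hpi was 6 under background-bin scaling (Tlr4 and Tlr5 added) and 3 under constant-bin scaling (without Tlr7). From 12 to 48 hpi H3K4Me1 at the starts was lower by at least 2-fold at Cd14, with log2 changes of -0.97 at Tlr4 and -0.95 at Tlr2, which were -1.08 and -1.05 under background-bin scaling. Background-bin scaling moved the H3K4Me1 log2 changes of the 10 starts at 48 hpi by 0.47 to 0.51 and put 5 starts at least 2-fold higher. Under that scaling the sign at the Tlr9 start turned from -0.24 to 0.27 and that at Tlr3 from -0.30 to 0.18, and in 6 kb windows the signs at Tlr4 and Tlr6 turned to 0.35 and 0.42. H3K27Me3 was at least 2-fold higher at 1 start, Tlr3, and at least 2-fold lower at 2, Cd14 and Tlr2, against 1.57% and 1.89% of all starts.

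Before induction the 10 starts fell into different states. H3K4Me1 was enriched at 9 starts, all but Tlr8, against 44.8% of all protein-coding starts. H3K27Ac was enriched at 6 (Tlr2, Tlr3, Tlr4, Tlr6, Tlr9 and Cd14), against 46.3%, and H3K27Me3 at 3 (Tlr1, Tlr2 and Cd14), against 16.3%. By these limits Tlr2 and Cd14 had all 3 marks, Tlr3, Tlr4, Tlr6 and Tlr9 had H3K4Me1 and H3K27Ac, Tlr1 had H3K4Me1 and H3K27Me3, Tlr5 and Tlr7 had H3K4Me1 alone, and Tlr8 had none. Some of these calls rest on few tags. Cd14 had 34 H3K27Ac tags (Poisson interval 23.5 to 47.5) and Tlr2 38 H3K27Me3 tags (26.9 to 52.2). Tlr1 had 45 H3K27Me3 tags (32.8 to 60.2). Tlr5 and Tlr8 had 30 and 29 H3K27Me3 tags (20.2 to 42.8 and 19.4 to 41.6), so these intervals span the limit of 34. Cd14 had 33 H3K4Me1 tags, with an interval (22.7 to 46.3) that spans the limit of 27. The number of starts enriched in H3K27Ac over the 5 times was 6, 7, 8, 9 and 8, while the share of all starts was 46.3%, 46.8%, 47.1%, 46.7% and 47.1%. At 48 hpi H3K4Me1 was enriched at 10 starts (40.6% of all) and H3K27Me3 at 1, Tlr1 (18.6% of all). At 48 hpi the order of H3K27Ac levels was Cd14, Tlr4, Tlr6, Tlr2, Tlr7, Tlr9, Tlr3, Tlr8, Tlr1 and Tlr5. Of neighbours in this order, the pairs Cd14 and Tlr4 (1288 and 1173 tags), Tlr6 and Tlr2 (717 and 657), Tlr3 and Tlr8 (104 and 102) and Tlr1 and Tlr5 (29 and 14) had overlapping Poisson intervals.

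Over the 10 loci together, 255 windows were counted once each out of 276, the rest being shared between neighbours. Of the 255, 8 held no tag in any library, and such windows were left out of the genome share. The number of windows enriched in H3K27Ac over the 5 times was 51, 66, 76, 96 and 103, while the share of genome windows was 6.32%, 6.45%, 7.38%, 7.67% and 9.28%. From 0 to 48 hpi the mark was called higher in 69 and lower in 8 (genome 4.04% and 2.03%), and H3K4Me1 was called higher in 66 and lower in 5 (genome 4.07% and 1.84%), the latter being 1 under background-bin and 3 under constant-bin scaling. H3K27Me3 was called higher in 1, 9 kb upstream of Tlr8 (17 and 39 tags), and lower in 7, of which 5 lay at Cd14 and 2 at Tlr2 (genome 0.487% and 0.125%). The higher one lay just at 2-fold, and the constant-bin shift of -0.17 takes it under. Background-bin scaling took the window 12 kb downstream of Cd14 and the Tlr2 start under 2-fold (-0.96 and -0.99). Constant-bin scaling took those 21 kb downstream of Cd14 and 18 kb upstream of Tlr2 past it (-1.11 and -1.01). The windows higher in H3K27Ac were unevenly spread, with 22 at Tlr4, 20 at Cd14, 11 at Tlr2, 9 at Tlr7, 2 or 3 each at Tlr1, Tlr6, Tlr8 and Tlr9, and 0 at Tlr3 and Tlr5, where windows shared by Tlr1 and Tlr6 or by Tlr7 and Tlr8 stand at both genes. Of the 69, 16 carried H3K4Me1 and H3K27Ac at 0 hpi, 15 carried H3K4Me1 only, 0 carried H3K27Ac only and 38 carried neither. Of the 33582 genome windows that were likewise higher, 14.4%, 25.8%, 0.616% and 59.2% were in these states, so windows with neither mark were no more frequent here than among higher windows in general. Among these 38, H3K4Me1 passed its limit earlier than H3K27Ac in 7, at the same time in 21 and later or not at all in 10, against 28.2%, 42.1% and 29.6% of the genome windows of this kind.

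The 8 windows called lower in H3K27Ac were found at Tlr4 (3), Tlr2 (2), Tlr6, Tlr7 and Tlr9 (1 each), and their log2 changes ranged from -2.83 to -1.04. Constant-bin scaling took the Tlr9 start and the window 48 kb downstream of the Tlr4 start under 2-fold (-0.83 and -0.64). In 8 of 8 the level at 3 hpi was below that at 0 hpi, at 27.8% to 64.3% of it, and the same held for 85.8% of the 16883 genome windows that were lower in H3K27Ac. The windows were chosen against the same 0 hpi library, so the lower level at 3 hpi is not independent of that choice. H3K4Me1 was enriched in 8 of 8 at 0 hpi and still in 7 of 8 at 48 hpi, against 95.2% and 77.9% of those genome windows, and was itself called lower in 1, the window in Prps2.

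To place the receptors in their pathway, H3K27Ac was read at the starts of 30 other genes of TLR function. Of these, 3 were at least 2-fold higher at 48 hpi and 3 at least 2-fold lower, against 5.37% and 9.4% of all starts, and the median log2 change was -0.09. Under constant-bin scaling, and likewise in 6 kb windows, 5 were higher. Of 3 other receptors, 1 was higher: Tlr13, an endosomal sensor of bacterial ribosomal RNA, had 4, 19, 64, 179 and 204 tags (4.54), while Tlr11 and Tlr12 stayed at 2 to 11 tags. Of 5 co-receptors and ligand-binding partners, 1 was lower: Cd180, a TLR-like receptor of B cells, had 1429, 783, 954, 924 and 329 tags (-2.10), whereas Ly96 had 363 and 564 tags at 0 and 48 hpi (0.63). Of 4 chaperones, 1 was lower: Unc93b1, which carries nucleic-acid-sensing TLRs to the endosome, had 573, 492, 442, 487 and 269 tags (-1.08). The constant-bin shift of 0.42 at 48 hpi takes this change under 2-fold.

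Of 5 adaptors with a TIR domain, 1 was lower: Sarm1 had 63, 72, 94, 53 and 20 tags (-1.44), while Myd88 had 428 and 573 tags at 0 and 48 hpi (0.42) and Ticam1 465 and 324 (-0.51). Of 10 kinases and ubiquitin ligases, 2 were higher, both kinases: Ikbke, which phosphorylates interferon regulatory factors, had 138, 85, 475, 662 and 468 tags (1.73) and Irak2 had 41, 78, 181, 196 and 145 (1.71). Of 3 inhibitors, 0 passed 2-fold, the nearest being Irak3, which had 323, 631, 750, 777 and 639 tags (0.97).

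**Figure D5:**
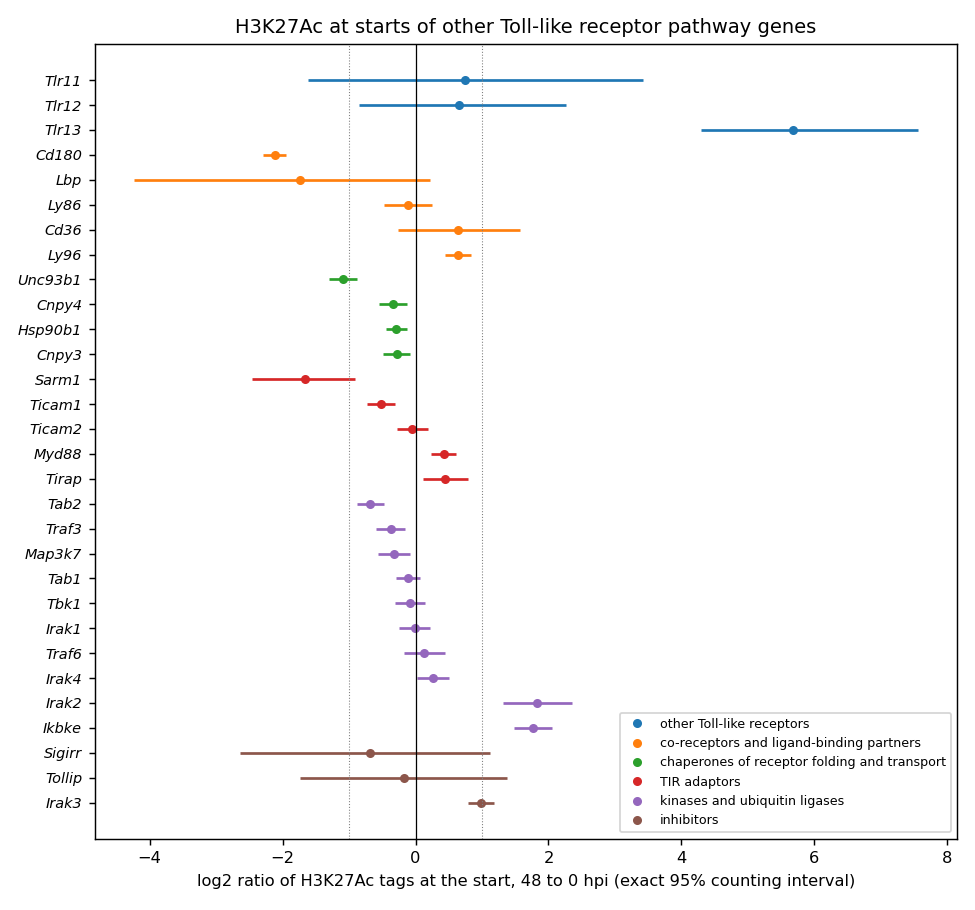
Log2 ratio of H3K27Ac tags at 48 hpi to tags at 0 hpi in the 3 kb at the start of 30 other TLR pathway genes, coloured by group, with exact 95% counting intervals and dotted lines at 2-fold. Most of the shared signalling genes lie between the dotted lines, while Tlr13, Ikbke and Irak2 lie above and Cd180, Sarm1 and Unc93b1 below. Lbp, with 10 and 3 tags, also lies below here because no tags were added.

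Finally, the 3 starts of other protein-coding genes with the most similar levels were sought for each member that was enriched in H3K27Ac at some time. The measure was the root mean square difference of log2 levels over 10 libraries of H3K27Ac and H3K4Me1. Levels were not centred per gene, so starts of like height can match although their courses differ. Pik3cg, matched to Tlr4, went from 1031 to 710 H3K27Ac tags, whereas Tlr4 went from 876 to 1173. For Cd14 the nearest starts were F5, Ifitm6 and Cd33, with differences of 0.57 to 0.64. For Tlr2 they included Csf2rb2 and Fuca1 (0.33 and 0.41), for Tlr7 Pstpip2, Ccnt1 and 4930415O20Rik (0.57 to 0.60), and for Tlr8 B430306N03Rik, Cby3 and Sdr16c6 (0.43 to 0.49). The others were Isoc2a, Tmem161b and Bbs4 for Tlr3 (0.14 to 0.17), Rilpl2, Gm5129 and Stat6 for Tlr6 (0.17 to 0.22), Mbd6, Pik3cg and Gm5129 for Tlr4 (0.27 to 0.31), and 2310007L24Rik, Akap7 and Msh4 for Tlr1 (0.36 to 0.37). For Tlr9 they included Cdh17 and Mpv17l2 (0.22 and 0.24). Of those for Tlr7, Ccnt1 and 4930415O20Rik both lie on chr15 and had nearly the same H3K27Ac tags (497 and 499 at 48 hpi), so they may not be separate examples.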

How the data were processed

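ChIP-seq of H3K4Me1, H3K27Ac and H3K27Me3 in C10 cells was analysed at 5 times, with 1 library per mark and time grouped from the GEO labels. The authors aligned reads to mm9 with Eland or Bowtie (per library not given in the sources used here; the submitters' notes name Bowtie) without mismatches, removed tags that did not align uniquely, and deposited positions of 36 bp tags without strand, not counts. The deposited files differ in how identical tags were treated (at most 1, 2 or more per position), so 1 tag per position was kept, placed 18 bp from its start. At the member starts this removed from 7.12% (3 hpi) to 11.6% (24 hpi) of H3K27Ac tags, which can lower the counts of the tallest windows. Libraries were thinned (seed 11) to the smallest of their mark. Tags were counted with numpy 2.4.6 and scipy 1.17.1 (Python 3.11.15, pandas 2.3.3) in 3 kb windows tiled from each annotated start (NCBIM37, GENCODE vM1) to 30 kb beyond each gene. HOMER, named in the study, was not used. Log2 changes have 5 tags added. Intervals are exact, at 95%. No test was run. Counting and calling were tested on simulated data, with changes well past 2-fold planted at starts enriched in H3K27Ac. Changes near 2-fold, or planted at starts under the limit, were not simulated.

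Named were all members, at most 3 further windows per locus with the largest H3K27Ac change from 0 to 48 hpi, pathway genes past 2-fold, and the 3 nearest patterns. Other windows and genes named (at Tlr4 3 and 63 kb downstream, at Tlr2 12 and 21 kb upstream, at Tlr7 12 and 15 kb downstream, at Cd14 18 kb and at Tlr8 9 kb upstream; Ly96, Myd88, Ticam1, Tlr11, Tlr12 and Irak3), and the windows called lower (enriched at 0 hpi and at least 2-fold below it at 48 hpi), were chosen after their values were seen, as were the motifs. The same holds for the windows 6 kb downstream of the Tlr4 start and 21 kb downstream of the Cd14 start. Members and lists were chosen with earlier results of these data known. Some items that these rules would name, including 1 pre-B marker and 1 start sequence, are not reported here.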

Additional observations from a re-analysis of the deposited data

How the results depend on the processing

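No paired analysis was possible because the labels carry no replicate numbers and every condition is a lone library. Over 10 alternatives and 45 results, 311 of 356 values moved by less than their counting interval or stayed within 1.5 times, 45 moved and 0 called values changed sign. Under background-bin scaling, 5 starts were at least 2-fold higher in H3K4Me1, 1 was lower in H3K27Me3, and 1 window was lower in H3K4Me1. Under constant-bin scaling, 0 starts were lower in H3K27Ac, 5 pathway starts were higher, 0 starts were higher in H3K27Me3 and 3 windows were lower in H3K4Me1. H3K27Me3 was higher at 0 starts also with all distinct positions, with tags as deposited and in 6 kb windows, and at 2 with a pseudocount of 1 tag. In 6 kb windows 5 pathway starts were higher in H3K27Ac, and in 1 kb windows 1 start was lower in H3K4Me1 (Tlr2). At a 4-fold limit, H3K27Ac was lower in 2 windows, and H3K4Me1 higher in 34 and lower in 1. Shifting the grid by 1500 bp or using the transcript start with the most tags moved none of the values computed under them. The cause of these shifts was not tested. With no replicates, library-to-library variation is unknown and may exceed every interval given. At starts with few tags, such as H3K27Me3 at Tlr4, Tlr6, Tlr7 and Tlr9 (4 to 11 tags), a 2-fold decrease lies within counting error.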
